A study of Mus musculus with 6 samples.

Results

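The 36 genes described here encode most of the enzymes that make cholesterol and fatty acids, together with 4 proteins that set how strongly those enzymes are transcribed. They were chosen by name, as known members of these pathways, and all 36 were found among the 23358 entries of the gene table, with Msmo1 listed under its older symbol Sc4mol. All 36 also passed the filter on low counts. The lowest count of any member in any tumor was 10, for Elovl3 in tumor 29, followed by 134 for Elovl4 in tumor 18. The set holds 4 control genes, 7 enzymes from acetyl-CoA to farnesyl diphosphate, 11 enzymes from squalene to cholesterol, 3 enzymes of fatty acid synthesis, 4 desaturases, 5 elongases and 2 enzymes of triglyceride synthesis.

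RNA came from 6 spontaneous tumors of 6 female mice, named here by mouse number. All 6 animals carried NT3, a transgene for NF-κB-inducing kinase (NIK) without its TRAF3-binding domain, which stays silent until Cre recombinase removes a stop cassette. In Osx-Cre;NT3 mice the Osterix (Sp7) promoter drives Cre under Tet-OFF control, and doxycycline chow kept it off until weaning. In FSP1-Cre;NT3 mice the S100a4 promoter drives Cre, chiefly in fibroblasts but also in myeloid cells. Tumors 13, 18 and 25 (Osx-Cre;NT3) grew on the trunk and had latencies of 150, 168 and 115 days. In the FSP1-Cre;NT3 group, 27 and 36 were perineal, with 101 and 52 days of latency, and 29 was a trunk tumor with 72 days. The Osx-Cre parents were of mixed C57Bl/6J and CD1 background and the FSP1-Cre parents of FVB/n background. Line, background and latency therefore changed together and cannot be told apart, and no perineal Osx-Cre;NT3 tumor and no Cre-negative tissue was analysed here.

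Each library held between 51824408 and 163297772 counts on genes, so that depth adds little error to a gene above a few CPM (the field's library-scaled count, here after TMM scaling), and precision is limited mainly by there being 6 tumors. The Osx-Cre;NT3 tumors had the lower mean RNA integrity number. Long and short transcripts were not recovered alike in the 6 libraries. Across 16415 genes, the Spearman correlation between coding length and a gene's deviation from its mean over tumors was -0.43 and -0.49 in tumors 13 and 18, against 0.42 in tumor 25, 0.37 in tumor 27, 0.16 in tumor 29 and 0.13 in tumor 36. Over the 36 members it was -0.56, -0.50, 0.42, 0.54, 0.24 and 0.01 in the same order. Sp7, the gene whose promoter drives Osx-Cre, lay at 0.026 to 0.282 CPM, near the 0.0184 to 0.0579 CPM that 3 counts represent, and S100a4 at 32.7 to 252 CPM. The labels name a site and no cell type. Both the fibroblast gene Col1a1 (886 to 4002 CPM) and the basal keratinocyte gene Krt5 (2591 to 6087 CPM) were abundant in every tumor. RNA was taken from whole tumor pieces, in which fewer cells of a type and less RNA per cell cannot be told apart.

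Cholesterol and fatty acids are both built from acetyl-CoA. SREBP-2 (Srebf2) chiefly drives the genes of cholesterol synthesis and uptake, and SREBP-1 (Srebf1) those of fatty acid synthesis. Both factors are held in the endoplasmic reticulum membrane with their escort SCAP when INSIG proteins bind it, and move to the Golgi for cleavage when sterol is scarce. INSIG-1 is itself an SREBP target. In skin, sebaceous glands and the outer epidermis make large amounts of lipid, including the very long fatty acids of sebum and of the permeability barrier, and adipocytes and many tumors also run fatty acid synthesis at high rates.

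SREBPs bind the promoters of these genes beside NF-Y, which reads CCAAT, and Sp1, which reads GGGCGG. RefSeq promoter windows (GRCm38.p6, 250 bases before to 50 after a start) were held for 27 of the 36 members, and no window was held for Fdps, Fdft1, Sqle, Scd1, Scd2, Fads1, Elovl3, Dgat1 and Dgat2. Only the 250 bases before the start were searched, on either strand, and a gene counted if any of its windows matched. CCAAT occurred in 20 of the 27 members (74.1%), and in 14 of 15 sterol enzymes, against 37.5% of 27025 genes. GGGCGG occurred in 22 of 27 members (81.5%) against 35.4% of genes. TCACNCCAC, the letters of the classic sterol regulatory element with N for any base, occurred in Hmgcs1 alone among the members and in 1.22% of genes. None of the 3 motifs contains another, and a match describes the sequence, not a bound site. The 250 bases before the start are given below for 4 SREBP-pathway genes that later sections return to, each 5′ to 3′ on the coding strand, with CCAAT or its reverse complement ATTGG in capitals and, in Hmgcs1, also the sterol element. They lie at chr13:119690101-119690350, plus strand (Hmgcs1), chr8:64733579-64733828, minus strand (Msmo1), chr1:169969206-169969455, minus strand (Hsd17b7) and chr5:28071162-28071411, plus strand (Insig1).
Hmgcs1: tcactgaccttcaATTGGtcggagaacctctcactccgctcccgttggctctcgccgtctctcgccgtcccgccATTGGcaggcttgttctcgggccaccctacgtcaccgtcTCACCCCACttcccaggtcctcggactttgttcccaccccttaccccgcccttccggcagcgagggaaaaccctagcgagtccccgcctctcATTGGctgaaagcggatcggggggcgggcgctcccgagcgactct
Msmo1: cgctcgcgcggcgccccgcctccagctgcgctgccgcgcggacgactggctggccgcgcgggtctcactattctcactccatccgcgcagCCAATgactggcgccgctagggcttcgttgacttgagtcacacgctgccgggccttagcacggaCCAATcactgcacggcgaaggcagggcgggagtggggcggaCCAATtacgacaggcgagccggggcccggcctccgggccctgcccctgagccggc
Hsd17b7: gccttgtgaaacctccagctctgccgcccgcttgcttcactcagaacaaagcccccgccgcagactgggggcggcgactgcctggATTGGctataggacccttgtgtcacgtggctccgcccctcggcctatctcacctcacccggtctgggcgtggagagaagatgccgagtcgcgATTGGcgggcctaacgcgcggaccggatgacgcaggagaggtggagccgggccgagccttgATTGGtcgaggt
Insig1: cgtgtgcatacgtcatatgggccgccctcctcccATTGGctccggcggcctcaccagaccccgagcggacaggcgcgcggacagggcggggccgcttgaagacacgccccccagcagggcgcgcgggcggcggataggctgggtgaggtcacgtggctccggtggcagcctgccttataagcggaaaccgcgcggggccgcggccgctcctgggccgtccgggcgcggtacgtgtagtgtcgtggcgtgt
CCAAT or ATTGG occurred 3 times in these bases of Hmgcs1, Msmo1 and Hsd17b7 and once in Insig1.

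Tumor 36, a perineal FSP1-Cre;NT3 tumor, had the highest level of 30 of the 36 members, against 24.8% of the 16415 genes tested. These included all 18 sterol enzymes, all 5 elongases and both enzymes of triglyceride synthesis. The 6 exceptions were Srebf1 and Fads1, highest in tumor 27, and Srebf2, Scap, Acaca and Fasn, highest in tumor 25. The same 30 members were highest in tumor 36 under all 4 ways of scaling the libraries, whereas which other tumor was highest for the 6 exceptions varied with the scaling. In tumor 36, 20 of 36 members (55.6%) were at least 2-fold above the median of the other 5 tumors, against 16.7% of 16155 genes above 0 in every tumor, and the median log2 ratio was 1.06 for members and -0.02 for all genes. In the other 5 tumors the median log2 ratio of the members, taken the same way, lay between -0.32 (tumor 29) and 0.14 (tumor 27). Tumor 29, of the same line, had the lowest level of 15 members, 10 of them sterol enzymes, and was lowest for 1550 of all 16415 genes. That count depended on the scaling. With library sizes alone tumor 29 was lowest for 11 members, and with upper-quartile scaling for 10, where tumor 25 was lowest for 11. The ratio of the highest to the lowest tumor had a median of 2.42 over the members and 2.35 over all genes. Without tumor 36 these fell to 1.69 and 2.04. The map of deviations by gene and tumor shows the contrast between tumor 36 and the other 5.

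**Figure D1:**
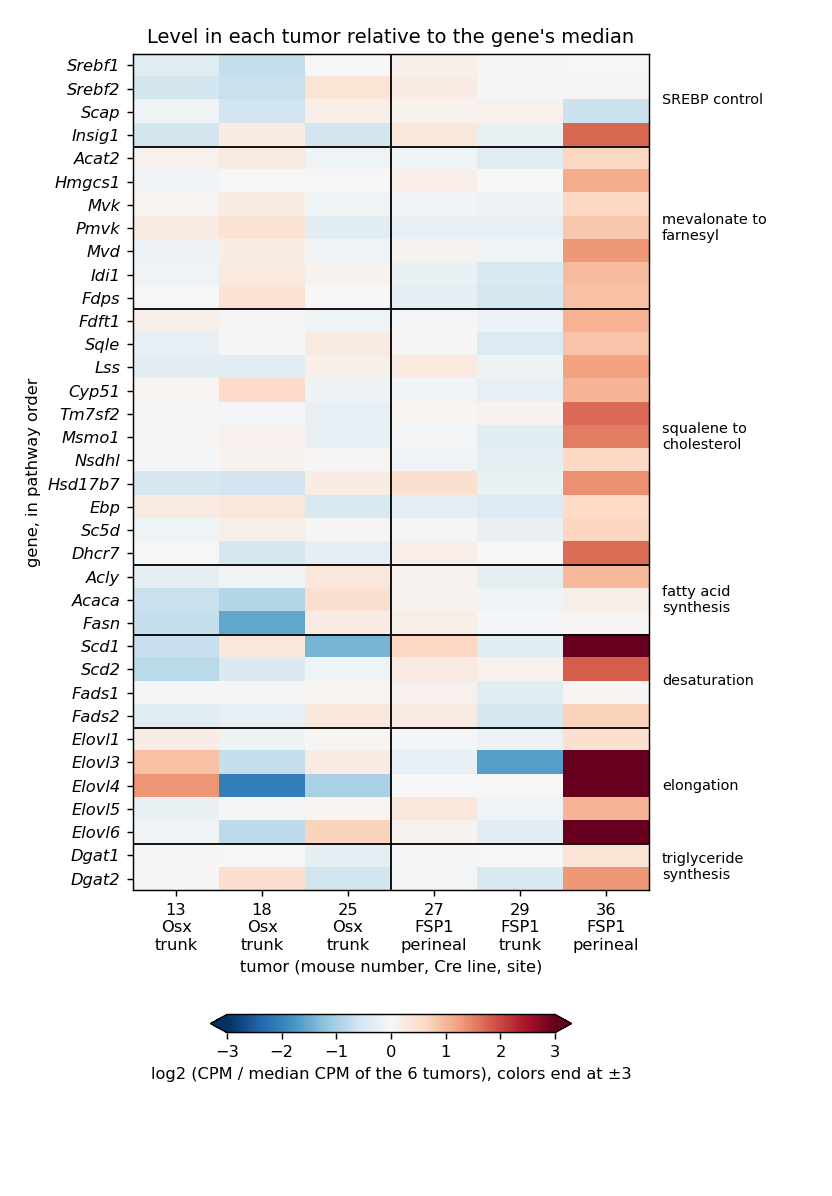
Level of each of the 36 genes (rows, in pathway order) in each tumor (columns) as log2 of CPM over the gene's median over the 6 tumors, with colors ending at ±3. Tumor 36 is the highest column for 30 of the 36 genes, while Srebf1, Srebf2, Scap, Acaca, Fasn and Fads1 are highest elsewhere.

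Levels of different genes were compared by RPKM, the authors' counts scaled by gene length and library size. Mean RPKM over the 6 tumors ranged from 2.00 ± 4.49 (SD, n = 6) for Elovl3 to 54.5 ± 44.7 for Scd2. After Scd2 came Fdps at 44.2 ± 16.3, Hmgcs1 at 43.6 ± 17.8, Fads2 at 38.7 ± 13.9 and Acly at 32.5 ± 13.0 RPKM, whose SDs overlap. At the other end, Tm7sf2, Hsd17b7 and Elovl3 had mean levels under 3 RPKM. Within the sterol pathway the enzymes up to farnesyl diphosphate were not uniformly higher than those after it. Mvd, at 8.18 ± 4.04 RPKM, lay below Msmo1 at 28.2 ± 18.0 RPKM. The summed RPKM of the 18 sterol enzymes was 212 to 282 in 5 tumors and 520 in tumor 36. The summed RPKM of Acly, Acaca and Fasn was 32.4 to 60.9 in 5 tumors and 77.6 in tumor 36.

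**Figure D2:**
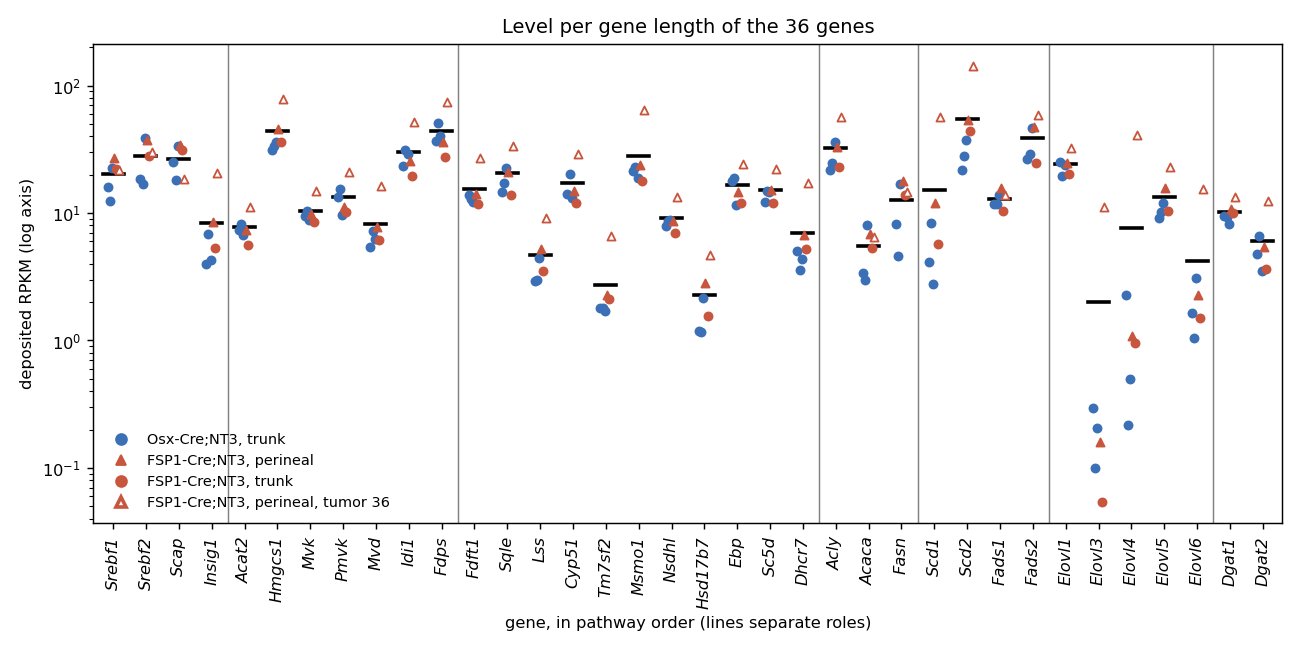
Deposited RPKM (log axis) of the 36 genes in pathway order, 1 point per tumor, colored by Cre line and shaped by site, with tumor 36 open and a black bar at the mean of the 6 tumors. Scd2 has the highest mean (54.5) and Elovl3 the lowest (2.00), and the mean of Elovl3 and of Elovl4 lies above all tumors but 36.

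Among the control genes, the transcription factors and their escort did not follow the enzymes. Srebf1 was at 90.9, 71.0 and 118 CPM in tumors 13, 18 and 25 and 130.5, 119.9 and 116 CPM in tumors 27, 29 and 36. Srebf2 was at 112, 103 and 219.6 CPM in tumors 13, 18 and 25 and 192, 159.6 and 169 CPM in tumors 27, 29 and 36. Scap was at 142, 103 and 176 CPM in tumors 13, 18 and 25 and 165, 167 and 97.8 CPM in tumors 27, 29 and 36, and was the only member lowest in tumor 36, against 23.8% of genes. For Srebf1 and Srebf2, tumors 13 and 18 were the lowest, and tumor 36 lay within the range of the other tumors. Insig1 behaved differently, at 14.1, 24.1 and 14.0 CPM in tumors 13, 18 and 25 and 25.5, 17.5 and 68.2 CPM in tumors 27, 29 and 36. Tumor 36 was 3.88-fold above the median of the others for Insig1, and tumors 13 and 25 were lowest. The RPKM ratio of Srebf1 to Srebf2 was 0.573 to 0.866 in 5 tumors and 0.727 in tumor 36.

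The 7 enzymes from acetyl-CoA to farnesyl diphosphate were all highest in tumor 36, by 1.65-fold (Mvk, mevalonate kinase) to 2.61-fold (Mvd, which decarboxylates mevalonate diphosphate) over the median of the other tumors. Hmgcs1, the synthase that makes HMG-CoA and whose promoter carries the sterol element above, was at 137, 147 and 147 CPM in tumors 13, 18 and 25 and 169, 149 and 319.7 CPM in tumors 27, 29 and 36. Its 5 lower tumors lay within 1.23-fold of each other. Mvd was at 13.5, 17.9 and 14.2 CPM in tumors 13, 18 and 25 and 16.4, 14.4 and 37.5 CPM in tumors 27, 29 and 36, again with 5 tumors close together. Acat2 (acetoacetyl-CoA thiolase) ranged from 14.5 to 28.8 CPM, Mvk from 17.7 to 30.4 CPM and Pmvk (phosphomevalonate kinase) from 18.0 to 39.4 CPM. Idi1, the isopentenyl diphosphate isomerase, ranged from 69.9 to 185 CPM and Fdps, which joins the units to farnesyl diphosphate, from 49.9 to 133 CPM. For Acat2, Mvk, Pmvk, Idi1 and Fdps the second highest tumor was 18, an Osx-Cre;NT3 tumor. Tumor 18 is also a library in which shorter genes were high in general (Spearman correlation with coding length -0.49). The part of length in this ranking was not tested.

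All 11 enzymes from squalene to cholesterol were likewise highest in tumor 36. Fdft1, which forms squalene, was at 52.6, 48.8 and 43.2 CPM in tumors 13, 18 and 25 and 45.8, 42.0 and 96.7 CPM in tumors 27, 29 and 36. Sqle, the epoxidase that is a control point of the pathway, was at 53.3, 62.3 and 76.3 CPM in tumors 13, 18 and 25 and 65.1, 47.7 and 115 CPM in tumors 27, 29 and 36. Tumor 36 exceeded the next tumor 1.84-fold for Fdft1 and 1.51-fold for Sqle. Msmo1, the methylsterol monooxygenase, was at 52.1, 55.1 and 42.3 CPM in tumors 13, 18 and 25 and 49.1, 40.5 and 146 CPM in tumors 27, 29 and 36. Dhcr7, which makes cholesterol from 7-dehydrocholesterol, was at 18.7, 13.2 and 15.1 CPM in tumors 13, 18 and 25 and 21.3, 18.5 and 59.8 CPM in tumors 27, 29 and 36. Hsd17b7, a ketosteroid reductase of the demethylation steps, was at 7.29, 7.00 and 12.1 CPM in tumors 13, 18 and 25 and 14.5, 8.90 and 26.6 CPM in tumors 27, 29 and 36. For Msmo1 the other 5 tumors lay within 1.36-fold of each other, whereas for Hsd17b7 they spread 2.07-fold with tumor 27, the other perineal tumor, second.

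The other enzymes of this stretch were highest in tumor 36 as well. Lss, which closes the sterol rings, ranged from 12.0 to 18.4 CPM in 5 tumors and was at 35.0 CPM in tumor 36. Cyp51, the lanosterol demethylase, ranged from 65.0 to 116 CPM and was at 157 CPM. Tm7sf2, a sterol reductase, was low at 3.10 to 3.95 CPM and reached 12.1 CPM. Nsdhl, Ebp and Sc5d, a dehydrogenase, an isomerase and a desaturase of the late steps, moved least. In tumor 36 they were 1.58, 1.83 and 1.60-fold above the median of the others. Ebp in particular was at 41.3 and 43.5 CPM in tumors 13 and 18 and at 52.1 CPM in tumor 36, and Nsdhl and Ebp both lie on chromosome X.

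The 3 enzymes of fatty acid synthesis did not move together. Acly, which supplies cytosolic acetyl-CoA from citrate, was at 129, 145 and 195 CPM in tumors 13, 18 and 25 and 166, 127 and 309 CPM in tumors 27, 29 and 36, with tumor 36 highest. Acaca, the acetyl-CoA carboxylase that makes malonyl-CoA, was at 40.7, 35.4 and 89.9 CPM in tumors 13, 18 and 25 and 70.0, 59.9 and 72.8 CPM in tumors 27, 29 and 36. Fasn, the fatty acid synthase, was at 108, 60.0 and 206 CPM in tumors 13, 18 and 25 and 201, 173 and 181 CPM in tumors 27, 29 and 36. For Acaca and Fasn tumor 25 was highest, tumors 13 and 18 were lowest, and tumor 36 lay among tumors 25, 27 and 29. Acaca and Fasn have the longest coding lengths of the members (9032 and 9938 bases), and tumors 13 and 18 are the libraries in which long genes were low in general. The part of length in their low levels was not tested. Srebf1, Acly, Acaca and Fasn all lie on chromosome 11, Fasn at chr11:120805958-120824547 (mm10, as given in the deposited table).

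The desaturases separated into a pair that varied strongly and a pair that did not. Scd1 (chr19:44394450-44407709), the stearoyl-CoA desaturase that makes oleic and palmitoleic acid, was at 26.7, 53.7 and 16.4 CPM in tumors 13, 18 and 25 and 66.1, 34.7 and 342 CPM in tumors 27, 29 and 36. Scd2 (chr19:44293676-44306862), its neighbor on chromosome 19, was at 157, 202 and 248 CPM in tumors 13, 18 and 25 and 329, 301 and 965 CPM in tumors 27, 29 and 36. Tumor 36 was highest for both, tumor 27 was second for both, and the other 4 tumors were trunk tumors. Scd1, Scd2 and Scd3 are related in sequence, so some reads may have been shared or lost between them. Their levels are uncertain to that extent. The RPKM ratio of Scd1 to Scd2 was 0.0743 to 0.299 in 5 tumors and 0.399 in tumor 36. Fads1 and Fads2, the desaturases of polyunsaturated fatty acids, also lie side by side on chromosome 19. Fads1 had the narrowest range of all members, at 54.3, 54.1 and 59.4 CPM in tumors 13, 18 and 25 and 61.8, 45.1 and 59.5 CPM in tumors 27, 29 and 36. Fads2 ranged from 46.9 to 109.6 CPM, with tumor 36 highest and tumors 25 and 27 next.

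The elongases held the widest ranges. Elovl3 (chr19:46131899-46135694), which extends saturated and monounsaturated chains in brown fat and sebaceous glands, was at 0.745, 0.247 and 0.479 CPM in tumors 13, 18 and 25 and 0.338, 0.128 and 26.0 CPM in tumors 27, 29 and 36. Elovl4 (chr9:83778692-83806305), which makes the ultra-long chains of the epidermal barrier and retina, was at 9.28, 0.883 and 1.89 CPM in tumors 13, 18 and 25 and 3.75, 3.67 and 155 CPM in tumors 27, 29 and 36. Elovl6, which extends palmitate to stearate, was at 13.1, 8.24 and 22.5 CPM in tumors 13, 18 and 25 and 15.2, 11.3 and 114 CPM in tumors 27, 29 and 36. Tumor 36 exceeded the next tumor 34.9-fold for Elovl3, 16.7-fold for Elovl4 and 5.09-fold for Elovl6. Tumor 27 was at 0.338 CPM for Elovl3, within the range of the trunk tumors. Elovl4 also varied among the 5 other tumors, 10.5-fold from tumor 18 to tumor 13. Elovl5, which acts on polyunsaturated chains, was at 34.0, 37.7 and 41.2 CPM in tumors 13, 18 and 25 and 49.9, 35.9 and 79.7 CPM in tumors 27, 29 and 36. Elovl1, a general elongase of saturated chains, ranged only from 48.3 to 76.5 CPM. Per length, Elovl4 stood at no more than 0.0908 of Elovl1 in 5 tumors and at 1.26 times Elovl1 in tumor 36.

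Of the enzymes that complete triglycerides, Dgat2 varied more than Dgat1. Dgat2 was at 14.4, 19.7 and 9.63 CPM in tumors 13, 18 and 25 and 13.8, 10.2 and 34.9 CPM in tumors 27, 29 and 36. Dgat1 ranged from 17.7 to 29.0 CPM. Tumor 36 was highest for both, 1.77-fold above the next tumor for Dgat2 and 1.30-fold for Dgat1.

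**Figure D3:**
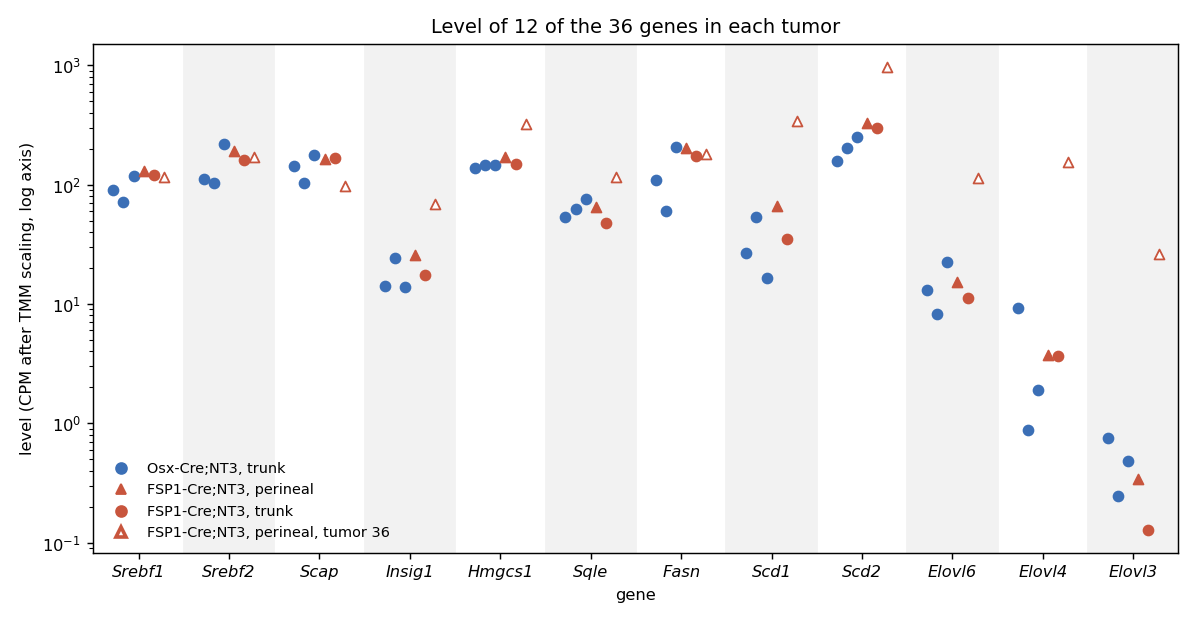
Level in CPM (log axis) of 12 of the genes in each tumor, 1 point per tumor, colored by Cre line and shaped by site, with tumor 36 open. Tumor 36 lies within the other points for Srebf1, Srebf2 and Fasn, below them for Scap, and above them for the other 8 genes, most of all for Elovl4 (155 CPM) and Elovl3 (26.0 CPM).

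The first comparison set the 3 FSP1-Cre;NT3 tumors against the 3 Osx-Cre;NT3 tumors. At a Benjamini-Hochberg adjusted p of 0.05 no member passed the quasi-likelihood test of edgeR, and neither did any of the 16415 genes tested (0%). At an unadjusted p under 0.05, edgeR gave 1770 genes (10.8%), 1200 of them higher in FSP1-Cre;NT3 (7.31%), and 2 of 36 members, Scd1 and Scd2, both higher. DESeq2 called 412 of 16098 genes with an adjusted p (2.56%), 347 of them higher in FSP1-Cre;NT3 (2.16%), and 0 members. It gave no adjusted p for Elovl3 and Elovl4, which therefore could not be called. The log2 fold change was above 0 for 34 of 36 members against 51.1% of all genes, with a median of 0.35 against 0.01. Without tumor 36 it was above 0 for 16 members, and the median was -0.08.

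The largest differences between the lines rested on tumor 36. Scd2 had a mean of 532 ± 376 CPM (SD, n = 3) in FSP1-Cre;NT3 and 203 ± 45.6 CPM in Osx-Cre;NT3 tumors. Its log2 fold change in edgeR was 1.39 ± 0.49 (SE, adjusted p = 0.458), and 0.64 without tumor 36. Scd1 differed by 2.19 ± 0.90 on the log2 scale (edgeR adjusted p = 0.458) and by 0.64 without tumor 36. For Elovl3 and Elovl4 the log2 fold changes of 4.18 ± 1.90 and 3.76 ± 1.72 (edgeR adjusted p = 0.463 and 0.463) became -1.06 and -0.11. Insig1, Dhcr7 and Hsd17b7 differed by 1.09 ± 0.54, 1.08 ± 0.48 and 0.92 ± 0.46 on the log2 scale (edgeR adjusted p = 0.466, 0.458 and 0.466). Without tumor 36 these values were 0.31, 0.35 and 0.41.

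Srebf1, Srebf2 and Fasn, which did not peak in tumor 36, differed by similar amounts with and without it. The log2 fold change of Srebf1 was 0.39 ± 0.22 with all tumors and 0.42 without tumor 36 (edgeR adjusted p = 0.494 and 0.682). For Fasn it was 0.57 ± 0.42 and 0.58, and for Srebf2 0.27 ± 0.32 and 0.28. None of these passed the threshold (edgeR adjusted p = 0.578 for Fasn and 0.74 for Srebf2 with all tumors). Their group means were separated mainly by tumors 13 and 18, and tumor 25 was level with or above the FSP1-Cre;NT3 tumors for Srebf2 and Fasn. Leaving out tumor 25 gave 5 members called by DESeq2, Srebf1, Srebf2, Acaca, Fasn and Scd2, all higher in FSP1-Cre;NT3. It then also called 3637 of all 16336 genes with an adjusted p (22.3%), 1625 of them higher (9.95%), against the 5 of 36 members. The Osx-Cre;NT3 group was then tumors 13 and 18 alone, the libraries in which long genes were low in general. The 5 called members have coding lengths of 4299 to 9938 bases, and the part of length in these calls was not tested. Hmgcs1 and Sqle differed by 0.57 ± 0.31 and 0.25 ± 0.34 on the log2 scale (edgeR adjusted p = 0.485 and 0.778), and without tumor 36 by 0.15 and -0.18. All FSP1-Cre;NT3 tumors lay above all Osx-Cre;NT3 tumors for 3 of 36 members, Hmgcs1, Tm7sf2 and Scd2, against 9.03% of genes, and no member showed the opposite separation, against 7.97% of genes.

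The second comparison set the 2 perineal tumors, both FSP1-Cre;NT3, against the 4 trunk tumors, 3 of them Osx-Cre;NT3. It shares all its samples with the first. Again edgeR called 0 of 36 members and none of 16971 genes (0%), with 1784 genes at an unadjusted p under 0.05 (10.5%). At that level 14 of 36 members were higher in perineal tumors, against 8.88% of genes (1507), and 0 were lower. DESeq2 called 598 of 16881 genes (3.54%) and 2 of 36 members, Scd1 and Elovl3, both higher in perineal tumors (adjusted p = 0.00786 and 0.00243). The log2 fold change was above 0 for 35 of 36 members against 48.5% of all genes, with a median of 0.59 against -0.02. Scap was the exception.

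Scd1 had a mean of 204 ± 195 CPM (SD, n = 2) in perineal and 32.9 ± 15.8 CPM (n = 4) in trunk tumors, and Scd2 647 ± 450.0 and 227 ± 61.7 CPM. Their log2 fold changes in edgeR were 2.63 ± 0.65 and 1.50 ± 0.44 (SE, adjusted p = 0.271 and 0.311). Without tumor 36 the single remaining perineal tumor, 27, gave 1.01 and 0.53, on the assumption that it varies like the trunk tumors. Elovl3 and Elovl4 differed by 5.05 ± 1.34 and 4.33 ± 1.30 on the log2 scale (edgeR adjusted p = 0.288 and 0.322), and by -0.23 and -0.065 without tumor 36. Insig1, Hsd17b7 and Elovl5 differed by 1.42 ± 0.41, 1.22 ± 0.35 and 0.79 ± 0.24 (edgeR adjusted p = 0.307, 0.307 and 0.323). Without tumor 36 these were 0.55, 0.72 and 0.42, all still above 0. Hmgcs1 and Sqle differed by 0.75 ± 0.27 and 0.58 ± 0.30 (edgeR adjusted p = 0.404 and 0.541). Srebf1, Srebf2 and Fasn differed by 0.29 ± 0.27, 0.28 ± 0.34 and 0.47 ± 0.46 (edgeR adjusted p = 0.686, 0.772 and 0.706).

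The perineal tumors lay above all trunk tumors for 9 of 36 members, Insig1, Hmgcs1, Lss, Hsd17b7, Dhcr7, Scd1, Scd2, Fads1 and Elovl5, against 9.98% of genes, and below them for 0 of 36, against 9.57%. In tumor 27 these 9 genes lay close to the trunk tumors. For Insig1 tumor 27 was at 25.5 CPM and the highest trunk tumor at 24.1 CPM. For Hmgcs1 the same values were 169 and 149 CPM, and for Dhcr7 21.3 and 18.7 CPM. The calls turned on which perineal tumor was kept. Without tumor 27, edgeR called 7 of 36 members as higher in tumor 36 than in the trunk tumors, namely Msmo1, Dhcr7, Scd1, Scd2, Elovl3, Elovl4 and Elovl6, against 562 of 17713 genes (3.17%). DESeq2 called 15 of 36 members as higher, against 1184 of 17345 genes (6.83%). Scd1 and Elovl3 then differed by 3.33 ± 0.55 and 6.02 ± 0.76 on the log2 scale (edgeR adjusted p = 0.0318 and 0.0128). That fit compares 1 tumor with 4, on the same assumption about its spread. Without tumor 36, DESeq2 called 14 genes (0.0876%) and 0 members, and edgeR called 0 genes, 350 at an unadjusted p under 0.05 (2.02%) with 0 members among them. The log2 fold change was then above 0 for 23 of 36 members, with a median of 0.12, against 47.4% of genes and a median of -0.03. Among the 3 FSP1-Cre;NT3 tumors alone, perineal over trunk, it was above 0 for 35 of 36 members with a median of 0.86. Over all genes the values were 50.8% and 0.01. The trunk side of that fit was tumor 29 alone, which had the lowest level of 15 members under TMM scaling and of 10 under upper-quartile scaling.

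**Figure D4:**
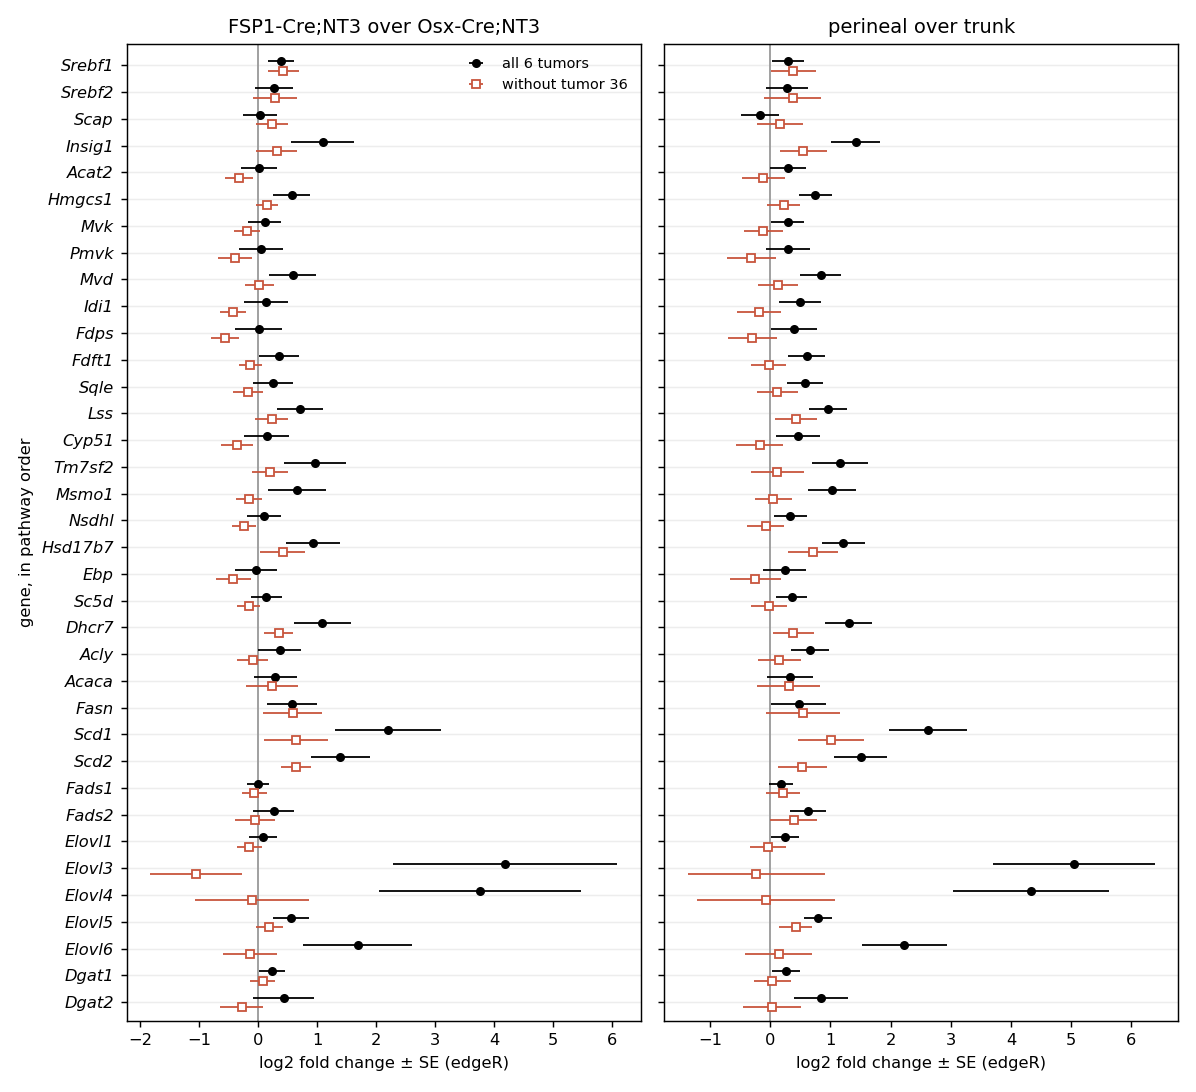
Log2 fold change with SE from edgeR for the 36 genes between the lines (left, FSP1 over Osx) and between the sites (right, perineal over trunk), with all 6 tumors (filled) and without tumor 36 (open). Without tumor 36 the points of Elovl3, Elovl4 and Elovl6 fall from between 1.69 and 5.05 to between -1.06 and 0.14, while those of Srebf1, Srebf2 and Fasn move far less.

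Other genes of the 2 pathways, listed by function, behaved as the members did in part. Of 18 further sterol genes, edgeR and DESeq2 called 0 in either comparison, and 9 were highest in tumor 36. Stard4, a sterol carrier and SREBP-2 target, was at 11.0, 13.9 and 21.5 CPM in tumors 13, 18 and 25 and 23.1, 14.4 and 63.1 CPM in tumors 27, 29 and 36. The genes of sterol export and of SREBP cleavage did not peak in tumor 36. Abca1 ranged from 65.6 to 151 CPM with tumor 27 highest, and Mbtps1 and Mbtps2, the proteases that cut SREBPs, ranged from 128 to 184 and from 19.4 to 32.9 CPM with tumor 25 highest. Of 23 further fatty acid and glyceride genes, 22 were tested, edgeR called 0, and DESeq2 called 1, Mlxipl, in perineal over trunk tumors. Mlxipl, which encodes the carbohydrate-responsive factor ChREBP, was at 0.166, 0.195 and 0.197 CPM in tumors 13, 18 and 25 and 0.46, 0.436 and 4.03 CPM in tumors 27, 29 and 36 (DESeq2 adjusted p = 0.0309 for site). Acss2, which makes acetyl-CoA from acetate, was at 11.1, 12.0 and 8.17 CPM in tumors 13, 18 and 25 and 13.8, 14.4 and 69.6 CPM in tumors 27, 29 and 36. Tumor 36 was highest for 16 of these 23 genes.

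Markers of lipid-making cells moved with the members in tumor 36. All 9 sebaceous gland markers were highest there, with a summed level of 279 CPM against 23.4 to 54.1 CPM in the other tumors. Far2 was barely so, at 43.7 CPM against 43.5 CPM in tumor 25, where it made up most of the sum. Krt79 was at 122 CPM against 2.70 to 13.7 CPM, Fa2h, a fatty acid hydroxylase, at 54.2 against 0.221 to 1.53 CPM, and Awat1, a wax synthase, at 23.6 against 0.104 to 1.82 CPM. Mc5r, a receptor of sebocytes, had 0.625 CPM in tumor 36 and was at 0 in 4 of the other tumors. All 10 adipocyte markers were also highest in tumor 36, with 228 CPM in sum against 11.9 to 82.7 CPM, and there tumor 27 was second. Fabp4 was at 97.1 CPM in tumor 36 and 23.0 CPM in tumor 27, and Adipoq at 9.32 and 3.71 CPM. In perineal over trunk tumors DESeq2 called 5 of 8 tested sebaceous markers and 8 of 10 adipocyte markers as higher, and edgeR called 0 of both. Between the lines DESeq2 called 6 of 10 adipocyte markers as higher in FSP1-Cre;NT3. It also called 4 of 7 fibroblast markers (Col1a1, Col1a2, Col3a1 and Pdgfra) as higher, and 1 of 6 macrophage markers, Mrc1. The macrophage list as a whole was not higher, with a median log2 fold change of -0.30 in edgeR. C1qa, C1qb, Cd68 and Adgre1 were at -0.75, -0.65, -0.53 and -0.06, and Csf1r at 0.06. Of the sebaceous markers only Krt79, Awat2 and Far2 had a DESeq2 adjusted p in this comparison, and 0 were called. The others, Fa2h and Awat1 among them, could not be called. In edgeR 0 of all these markers were called. The part of these cells in the levels of the members was not tested.

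Epithelial lists changed in tumor 36 as well. The 7 simple epithelium markers summed to 4819 CPM against 709.6 to 1288 CPM, with Krt8, at 2249 against 243 to 429 CPM, and Krt19, at 1091 against 11.8 to 43.4 CPM, making up most of the sum. Cldn3 and Epcam were highest in tumor 36 as well, whereas Krt18 was highest in tumor 18 and Krt7 in tumor 27, and Cldn4 was lowest in tumor 36, at 60.2 against 89.0 to 188 CPM. The 6 basal keratinocyte markers summed to 5687 CPM against 9956 to 14247 CPM, and 4 of them were lowest in tumor 36. Itga6 and Col17a1 lay within the range of the others, at 185 against 39.5 to 215 CPM and at 149 against 66.3 to 469 CPM. Of the 6 suprabasal keratinocyte markers found, 5 were highest in tumor 36, and the list summed to 882 CPM against 294 to 696 CPM. The other, Dsg1a, was lowest in tumor 36, at 167 against 284 to 480 CPM. Markers of the secreting mammary gland summed to 194 CPM, within the 166 to 407 CPM of the others, but its genes differed. Csn2 was lowest in tumor 36, at 56.6 against 82.3 to 347 CPM. Xdh was highest there, at 135 against 57.7 to 128 CPM, as was Elf5, at 1.38 against 0.205 to 1.10 CPM. Wap and Lalba were at no more than 0.104 and 0.0845 CPM in any tumor. The fibroblast, macrophage and skeletal muscle lists in tumor 36 (12967, 1151 and 100.3 CPM) also lay within the range of the other tumors in sum, although 4 of 7, 3 of 6 and 5 of 8 of their genes were highest there. The macrophage gene Mrc1 was at 243 against 16.2 to 114 CPM, and the muscle gene Ckm at 21.4 against 0.645 to 7.53 CPM, while Myh1 was highest in tumor 29 at 84.2 CPM. The proliferation list, at 614 CPM, was just above their 375 to 577 CPM. Their part in the members' levels was likewise not tested.

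**Figure D5:**
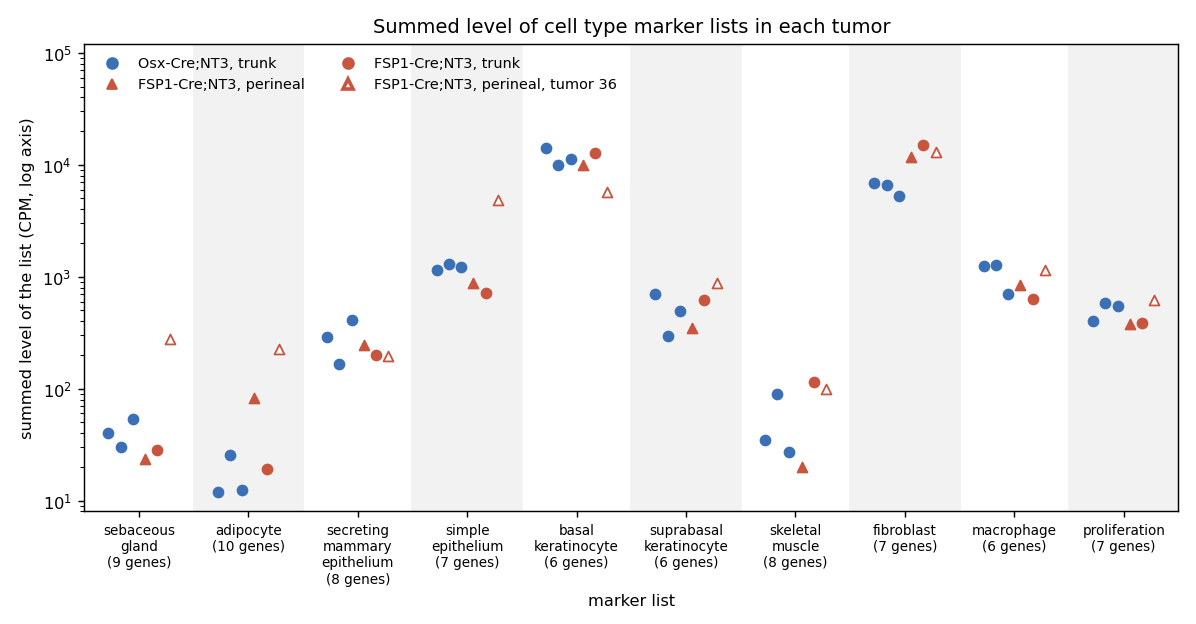
Summed level in CPM (log axis) of 10 lists of cell type markers in each tumor, 1 point per tumor, colored by Cre line and shaped by site, with tumor 36 open. Tumor 36 stands above the others for sebaceous gland (279 CPM), adipocyte (228 CPM) and simple epithelium (4819 CPM) and below them for basal keratinocyte (5687 CPM). By a smaller margin it is also highest for suprabasal keratinocyte (882 CPM) and proliferation (614 CPM).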

How the data were processed

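Total RNA from 6 tumors of 6 mice was sequenced from poly(A)-type mRNA libraries on an Illumina HiSeq2500. The authors aligned trimmed reads to mm10 and deposited raw counts per gene, which are not normalized, with RPKM values, which are scaled by gene length and library size. Their methods name HISAT2 and featureCounts, whereas the submitters' processing notes name bcl2fastq, TopHat2 2.0.6 and HTSeq, and the annotation and strand setting are not given in the sources used here. Every deposited count is even, as if both ends of a read pair had been counted. Reads shared by near-identical genes could have been split or dropped.

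The counts as deposited were tested over the whole table with edgeR 4.0.16 in R 4.3.3 (filterByExpr, TMM, glmQLFit, glmQLFTest, Benjamini-Hochberg over all genes tested, threshold 0.05), 3 FSP1-Cre;NT3 against 3 Osx-Cre;NT3 tumors and 2 perineal against 4 trunk tumors, without covariates. Groups came from the sample labels, each tumor from its own mouse. DESeq2 1.42.0 was the alternative test, and its adjusted p was left missing where DESeq2 gave none. Other alternatives were 3 other scalings, 2 other filters, halved counts, the other label as covariate, subsets by site or line, and leaving out each tumor. RPKM served only to compare genes of different length. Log2 CPM was taken without a prior count, except that 0.05 CPM was added before the log for the correlations with coding length. Total counts ranged from 51824408 to 163297772, so that 3 counts equal 0.0184 to 0.0579 CPM, for counting error only, since the reads carry no molecular identifiers. The code was tested on simulated counts.

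The members, the marker lists and the tests were chosen with earlier results of these data known. Every member is given by its level. Fold changes with errors are given for Srebf1, Srebf2, Hmgcs1, Sqle, Fasn and Scd1 and for the 6 further members with the smallest unadjusted p in each comparison.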

Additional observations from a re-analysis of the deposited data

Results flagged for a closer look

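For each of the 36 members the log2 CPM of the 6 tumors was examined for a tumor far from the rest, by the gap to the nearest tumor over the whole range (Dixon's test, critical value 0.625 for 6 tumors). This was met by 7 of 36 members. The nominal rate of about 1 in 20 gives about 1.8 of 36. The share of all genes that meet the criterion was not computed. Tumor 36 was the highest tumor for 24.8% of the 16415 genes tested, so the 7 are not shown to exceed genes in general. In all 7 the tumor was 36, and it was the highest. The members share the same tumors, so the 7 are not independent. Of these, 3 lie early in the sterol pathway or at its branch to squalene. Hmgcs1 was at 8.32 log2 CPM, with the next tumor at 7.40, Mvd at 5.23 with the next at 4.16, and Fdft1 at 6.60 with the next at 5.72. Another 3 act late in the pathway. Tm7sf2 was at 3.59 log2 CPM with the next tumor at 1.98, Msmo1 at 7.19 with the next at 5.78, and Dhcr7 at 5.90 with the next at 4.42. The elongase Elovl3 was at 4.70 log2 CPM, and the next tumor, 13, was at -0.42. Elovl4, Elovl6, Scd1 and Scd2, which also peak in tumor 36, did not meet the criterion.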

How the results depend on the processing

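Site and line overlap in these 6 tumors, and many values change without the perineal tumor 36. No paired analysis was possible because the groups share no replicate numbers. Between the lines, edgeR called 0 genes and 0 members under every scaling, filter, covariate and subset tried and with each tumor left out in turn. DESeq2 called 412 genes with all tumors, from 188 (without tumor 36) to 3637 (without tumor 25) with a tumor left out, including 230 without tumor 13 and 736 without tumor 29, and between 0 and 5 members (1 without tumor 27, 3 without tumor 29 and 5 without tumor 25). The members' median log2 fold change of 0.35 became -0.21 with site as covariate, -0.21 in trunk tumors only, and from -0.081 (without tumor 36) to 0.52 with a tumor left out. Library sizes alone moved the median of all genes from 0.01 to 0.13 and that of the members to 0.45. With site as covariate, in trunk tumors only and without tumor 36, the log2 fold change of Sqle became -0.42, -0.43 and -0.18, that of Elovl3 -1.90, -1.91 and -1.06, and that of Elovl4 -0.12, -0.13 and -0.11. With other tumors left out these 3 genes reached at most 0.47, 4.74 and 5.28. Between the sites, edgeR called 0 genes except without tumor 25 (2) and without tumor 27 (567), and 0 members except without tumor 27 (7). DESeq2 called 598 genes and 2 members with all tumors, from 14 (without tumor 36) to 1485 (without tumor 27) genes and from 0 to 15 members with a tumor left out, including 318 genes without tumor 13. The members' median of 0.59 ranged from 0.12 (without tumor 36) to 0.91 (without tumor 27). Without tumor 36, Elovl3 became -0.23 and Elovl4 -0.065, and without tumor 27 they were 6.02 and 5.29. Of the values of named genes under alternatives, 171 of 180 in the first comparison and 172 of 180 in the second kept their direction and side of the threshold. Scd1 and Elovl3 passed it in DESeq2, and Scd1, Scd2, Elovl3 and Elovl4 without tumor 27. DESeq2 without each tumor and the other scalings for tumor 36 were chosen after seeing the data. The cause of these changes was not tested.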

Other observations

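Tumor 36 also stood apart in genes of the pathway that the transgene activates. Relb, the transcription factor subunit of alternative NF-κB signaling, was at 85.3 CPM in tumor 36 and at 195 to 230 CPM in the other 5 tumors. Nfkb2, which encodes its partner p100/p52, was at 190 CPM against 308 to 583 CPM. Map3k14, the gene of NIK, was at 43.5 CPM, within the 38.7 to 118 CPM of the others, and its counts do not separate the transgene from the endogenous gene. These are values of single tumors, with no test.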
